A study of Mus musculus with 6 samples.

Results

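Receptor genes of the interferon, IL-10 and gp130 families, 10 of the 16254 genes in the count table, were followed in mouse bone marrow-derived eosinophils after exposure to extracellular vesicles (EVs). They were chosen by name, as members of these families: the chains of the type II interferon receptor (Ifngr1 and Ifngr2), the type I interferon receptor (Ifnar1 and Ifnar2), the IL-10 receptor (Il10ra and Il10rb) and the IL-6 receptor (Il6ra and Il6st, which encodes gp130), the G-CSF receptor Csf3r, and Crlf2, a chain of the receptor for thymic stromal lymphopoietin (TSLP). All of the genes named were present in the table, and all passed the filter on low counts. The eosinophils had been grown from the bone marrow of C57BL/6 mice aged 6 to 12 weeks, with FLT3 ligand and stem cell factor followed by IL-5. On culture day 12 they received either 5e9 EVs/ml purified from cultures of activated TH2 cells (EV, 3 samples) or unconditioned medium taken through the same purification (sham, 3 samples), and RNA was collected 24 h later. Both groups carry the same genotype label, C57BL/6, and both had been differentiated in IL-5, in cultures that can hold other bone marrow cells. The labels call the samples biological replicates without saying whether each came from a separate mouse, so p-values measure the spread between these samples.

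Receptors of these families have no kinase of their own. Ligand brings receptor chains together, JAK kinases bound to the chains phosphorylate each other and the receptor, and STAT factors recruited there move to the nucleus. The IL-10 receptor, gp130 and the G-CSF receptor act mainly through STAT3, and the type I interferon receptor through STAT complexes that include STAT2 and IRF9. Eosinophils depend on IL-5 and related cytokines for survival, and chains of these other receptors set which further cytokines an eosinophil can sense.

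Between 23697620 and 37874426 estimated counts were assigned to genes per sample, and the 10 most abundant genes took 8.49% to 9.54% of them. Levels are given as normalized counts, which are counts scaled to the geometric mean of the 6 effective library sizes, and a gene was called where the quasi-likelihood test of edgeR over 13498 genes gave it an adjusted p under 0.01. All 11 eosinophil marker genes were present in every sample, 8 of them higher with EVs and none lower (12.1% and 11.6% of all genes tested). Prg2 (major basic protein), which was not among the 8, had 558759 to 717371 normalized counts in sham and 712821 to 777590 in EV. Genes listed as markers of other cells were present as well, though a listed gene need not be confined to those cells. The summed level of 11 macrophage and monocyte genes was 54193 to 67195 in sham and 68071 to 74076 in EV. Within the list 2 genes were called higher (Adgre1 and Ly6c2) and 6 lower (Csf1r, Cd68, C1qa, C1qb, C1qc and Marco), beside 12.1% and 11.6% of all genes. Adgre1 (mean 21326 in sham and 32764 in EV) and Ly6c2 (10910 and 27641) gave most of the summed level in EV. The sum thus does not show the fall of the other 6. None of the 3 dendritic cell and 3 B cell genes tested was called, and 1 of 5 genes of dividing cells, Top2a, was higher.

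Il10ra, the ligand-binding chain of the IL-10 receptor, rose 5.09-fold with EVs and Crlf2 rose 1.32-fold, while Il6ra, the ligand-binding chain of the IL-6 receptor, fell 6.49-fold, Csf3r fell 3.56-fold and Ifnar2 fell 1.59-fold. The other 5 genes, Ifngr1, Ifngr2, Ifnar1, Il10rb and Il6st, did not pass the test. Thus 2 of the 10 receptors were higher, where 12.1% of all genes tested were, and 3 were lower, where 11.6% were. With a log2 fold change of 1 or more in size also required, Il10ra alone was higher (3.1% of all genes) and Il6ra and Csf3r were lower (6.35%). Sham and EV values did not overlap for 9 of the 10 receptors, all but Il6st, and for 49.6% of all genes. The EV samples were all above sham for 4 receptors (24.8% of all genes) and all below for 5 (24.7%). Of all calls 50.9% were higher, and 30.7% were with library totals in place of TMM scaling. The median log2 fold change was -0.0384 over the receptors and -0.014 over all genes. RNA was taken from whole cultures, in which fewer cells of a type and less RNA per cell cannot be told apart. The authors report that vesicles of activated T cells raised eosinophil survival in culture and reduced apoptosis, compared with untreated cells. The sham and EV cultures may thus have differed in their share of dying cells. Viability of the sequenced cultures is not given in the sources used here, and its part in the changes between the groups was not tested.

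**Figure D1:**
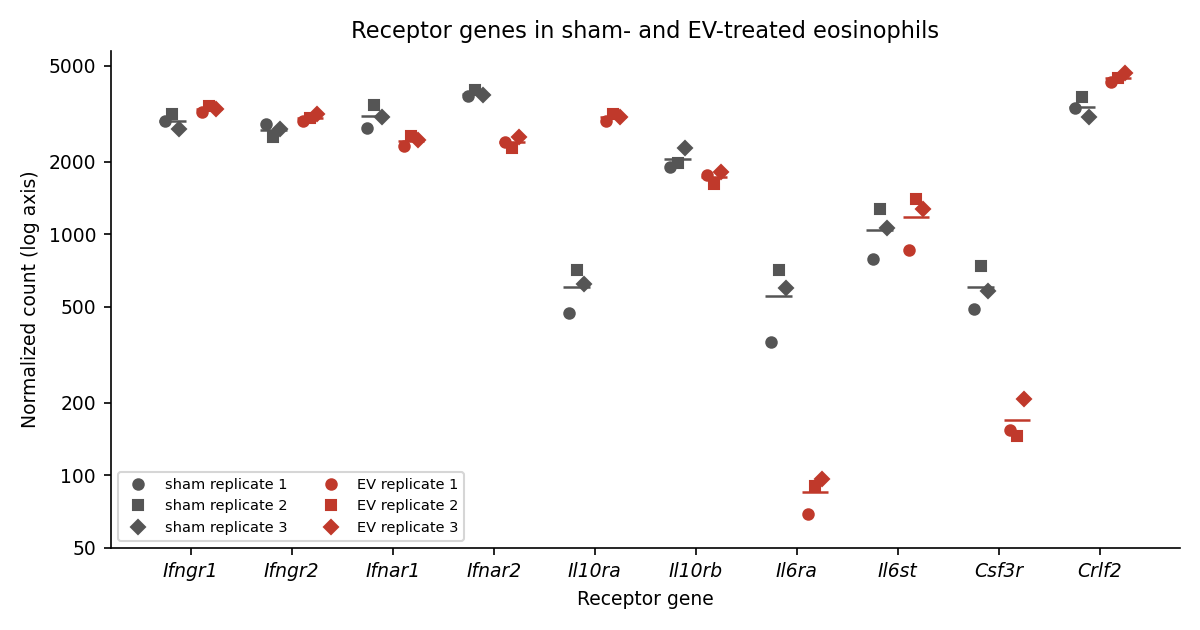
Normalized counts (log axis) of the 10 receptor genes in each of the 3 sham (grey) and 3 EV (red) samples, with symbols for the replicate number and a horizontal line at each group's mean. Il10ra has a mean of 602 in sham and 3053 in EV, and Il6ra and Csf3r reach at most 96.6 and 207 in EV.

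**Figure D2:**
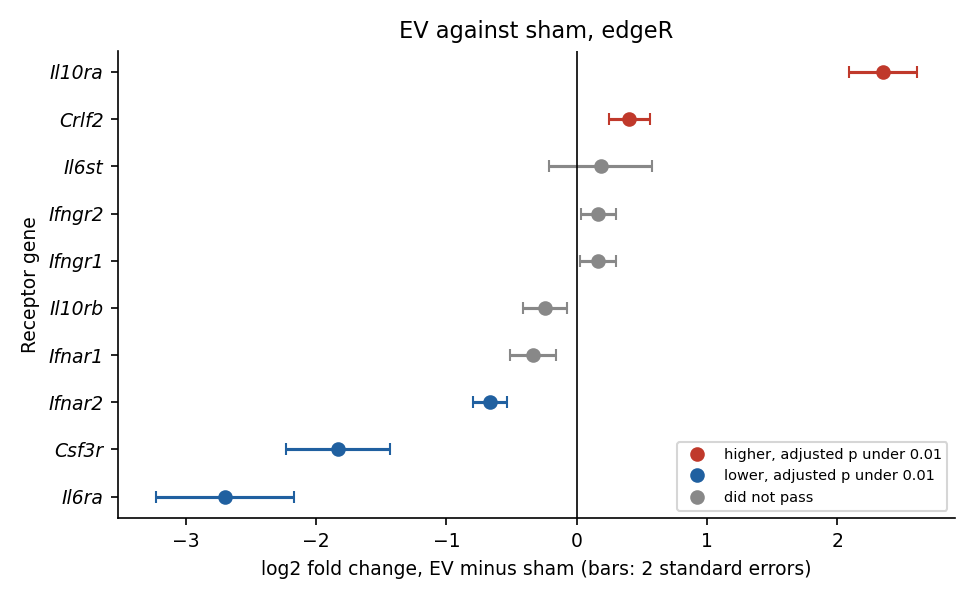
Log2 fold change of each receptor gene, EV minus sham, from edgeR's quasi-likelihood test, with bars of 2 standard errors on each side and colours for the call at an adjusted p under 0.01. The changes run from -2.70 for Il6ra to 2.35 for Il10ra, and the bars of Il6st alone span 0.

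Sequence just upstream of the start site is shown for the 4 called receptors that had an entry in the RefSeq promoter table (build GRCm38.p6), so that the genes that fell can be set beside Crlf2, which rose. An entry was found for 8 of the 10 genes, and Il10ra and Il10rb had none. Each run ends at the base before the annotated start and is written 5′ to 3′ on the strand of the gene: Ifnar2 at chr16:91372533-91372782 (plus strand), Il6ra at chr3:89913197-89913446 (minus strand), Csf3r at chr4:126024409-126024549 (plus strand, 141 bases, ended where an annotated exon begins) and Crlf2 at chr5:109558994-109559243 (minus strand). Capitals mark 2 motifs searched on both strands, the interferon gamma-activated sequence (GAS) TTCNNNGAA, of the kind STAT dimers bind, and the ETS-type element GGAAGT.
Ifnar2: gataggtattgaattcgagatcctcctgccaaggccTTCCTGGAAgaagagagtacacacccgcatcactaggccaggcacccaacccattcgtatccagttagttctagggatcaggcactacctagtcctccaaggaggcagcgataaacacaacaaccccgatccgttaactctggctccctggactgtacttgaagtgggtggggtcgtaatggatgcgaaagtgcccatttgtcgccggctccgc
Il6ra: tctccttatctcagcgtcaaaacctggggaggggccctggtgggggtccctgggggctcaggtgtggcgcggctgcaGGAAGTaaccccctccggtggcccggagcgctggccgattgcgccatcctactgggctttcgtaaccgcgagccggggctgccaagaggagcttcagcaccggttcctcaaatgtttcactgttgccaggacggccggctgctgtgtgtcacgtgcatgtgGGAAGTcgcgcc
Csf3r: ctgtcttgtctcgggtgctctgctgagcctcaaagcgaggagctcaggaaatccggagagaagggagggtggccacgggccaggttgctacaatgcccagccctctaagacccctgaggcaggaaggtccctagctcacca
Crlf2: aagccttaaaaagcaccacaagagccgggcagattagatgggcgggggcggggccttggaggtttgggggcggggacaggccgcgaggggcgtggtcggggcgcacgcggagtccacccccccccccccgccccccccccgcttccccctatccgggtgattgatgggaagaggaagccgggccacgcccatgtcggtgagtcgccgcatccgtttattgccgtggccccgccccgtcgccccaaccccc
A GAS match began 214 bases before the start site of Ifnar2, and ETS-type matches began 173 and 12 bases before that of Il6ra. Neither motif was found in the runs of Csf3r and Crlf2. In windows of 300 bases around the start sites, GAS was present for 2 of the 8 receptors (Ifnar1 and Ifnar2) and for 8.3% of 32851 promoters, and the ETS-type element for 2 of the 8 (Ifnar1 and Il6ra) and for 23.8%. The interferon-stimulated response element (GAAA repeated after a gap of 2 bases) and the C/EBP-type element TTGCNNAA were in none of the 8 windows and in 3.44% and 10.8% of all promoters. The STAT6-type element (TTC and GAA with a gap of 4 bases) was in 1 of the 8, that of Ifngr2, and in 6.95% of promoters. These matches describe letters in a window and say nothing of binding.

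The IL-10 receptor pairs Il10ra, which binds IL-10 and carries JAK1, with Il10rb, a chain carrying TYK2 that the receptors for IL-22 and type III interferons also use. Il10ra (chr9:45253837-45269149, minus strand, mm10) had 469, 713 and 623 normalized counts in sham replicates 1 to 3 and 2954, 3140 and 3066 in the EV replicates. The groups were far apart, and the EV samples lay closer together (coefficient of variation 3.06%) than the sham samples (20.5%). The log2 fold change was 2.35 (SE 0.131, adjusted p = 7.96e-07, edgeR), rank 132 by p among the 13498 genes tested. Il10rb (chr16:91406164-91425834, plus strand) had 1900, 1979 and 2270 normalized counts in sham and 1765, 1615 and 1815 in EV. All EV samples lay below all sham samples, but the log2 difference of -0.24 (SE 0.0853) did not pass (adjusted p = 0.0493, edgeR). With library totals in place of TMM scaling it did, at -0.39 (adjusted p = 0.00478, edgeR), a scaling under which the median of all genes moved to -0.163. Within a sample, the count of Il10ra was 0.247, 0.361 and 0.275 times that of Il10rb in sham and 1.67, 1.94 and 1.69 times in EV. Such ratios compare counts of transcripts that differ in length, so their change between the groups is read here and not their size. The ratio of the chains differed 6.07-fold between the groups (exact permutation test, two-sided, p = 0.1, the smallest that 3 against 3 samples can give, and 0.125 after adjustment over 5 pairs of chains).

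T cells, the source of the vesicles, are rich in Il10ra, so T cell markers were read beside it. The summed level of 7 T cell genes was 57.7 to 151 normalized counts in sham and 63.9 to 136 in EV. Cd3d, a subunit of the T cell receptor complex, had 31.5, 71.1 and 12.2 normalized counts in sham and 28.0, 66.0 and 51.4 in EV, and the 2 genes of the list with enough counts to be tested, Cd3d and Il2ra, did not pass. Of 4 basophil and mast cell genes tested, Cpa3 and Mcpt8 were higher, beside 12.1% of all genes. Fcer1a (log2 difference 1.55, adjusted p = 0.0106, edgeR) and Kit (-0.23, adjusted p = 0.355, edgeR) did not pass. The 5 genes of this list in the table, of which Cpa3 gave most of the counts, summed to 1775 to 2430 in sham and 4236 to 5327 in EV. The part of T cell RNA and of basophils or mast cells in the Il10ra result was not tested. Il10ra shares its locus with Gm20612, a processed pseudogene on the opposite strand, and Mir7086. No 31-base word of its transcripts was found in another gene in the same orientation. Words of the opposite strand were not searched, so this search cannot speak to Gm20612. The strand setting of the counting is not given in the sources used here, so reads of the pair may not have been told apart.

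IL-6 binds Il6ra, which cannot signal itself, and the complex then engages gp130, the product of Il6st, the shared signalling chain of the IL-6 family. Il6ra (chr3:89864059-89913196, minus strand) had 357, 713 and 597 normalized counts in sham and 68.9, 90.0 and 96.6 in EV. Even the lowest sham sample, replicate 1, stood well above every EV sample. The log2 fold change was -2.70 (SE 0.265, adjusted p = 3.12e-05, edgeR). Il6st (chr13:112464070-112510086, plus strand) had 790, 1275 and 1058 normalized counts in sham and 860, 1402 and 1273 in EV. The groups overlapped, and replicate 1 was the lowest in each. Its log2 difference was 0.18 (SE 0.199, adjusted p = 0.518, edgeR), and 2 standard errors on either side ran from -0.21 to 0.58. Il6ra counts were 0.452, 0.560 and 0.564 times those of Il6st in sham and 0.0812, 0.0648 and 0.0765 times in EV. The ratio was 7.08-fold lower with EVs (exact permutation test, two-sided, p = 0.1, adjusted 0.125). The antisense gene Gm42809 overlaps Il6ra, and the strand setting of the counting is not given in the sources used here, so reads of the pair may not have been told apart.

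The G-CSF receptor is a homodimer of Csf3r (chr4:126024550-126044440, plus strand) best known for driving neutrophil production. Csf3r had 487, 741 and 581 normalized counts in sham and 154, 146 and 207 in EV. The groups did not overlap, and the log2 fold change was -1.83 (SE 0.201, adjusted p = 6.50e-05, edgeR). Its counts are uncertain in part, since 23.1% of the 31-base words of its transcripts occur in another gene, 19.9% in the annotated gene AC105061.2. The 12 neutrophil genes summed to 22312 to 26085 normalized counts in sham and 20503 to 24412 in EV, which overlap. Yet 5 of them were called lower (S100a8, S100a9, Camp, Ltf and Mmp8) and 2 higher (Ly6g and Cxcr2), beside 11.6% and 12.1% of all genes. S100a8, a calcium-binding protein abundant in neutrophils, fell by 1.18 on the log2 scale (SE 0.0986, adjusted p = 1.07e-05, edgeR).

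Il6ra and Csf3r fell in the samples in which 6 of 11 macrophage and monocyte genes were lower. Adgre1 and Ly6c2 of that list were higher, and the other 3 did not pass. C1qc, a chain of complement C1q made by macrophages, had 2208, 4011 and 3417 normalized counts in sham and 324, 630 and 668 in EV (log2 fold change -2.56, SE 0.274, adjusted p = 5.40e-05, edgeR). C1qb, another chain of C1q, had 3128, 6296 and 5701 in sham and 498, 1065 and 1134 in EV. Replicate 1 was the lowest sample for both genes in sham and in EV. In sham it was also the lowest for 7 of the 10 receptors, all but Ifngr1, Ifngr2 and Crlf2. In EV it was the lowest for Il6ra but not for Csf3r. The collagen gene Col1a2 was the 1 of 4 stromal genes tested that was called lower (-2.91, adjusted p = 0.00662, edgeR), beside 11.6% of all genes. Col1a1 (-2.74, adjusted p = 0.030, edgeR) and Col3a1 (-2.27, adjusted p = 0.042, edgeR) did not pass, though all EV samples lay below all sham samples. Pdgfrb did not pass either, and its groups overlapped (0.24, adjusted p = 0.148, edgeR). The 5 stromal genes in the table summed to 11235 to 21333 in sham and 1707 to 7591 in EV. The part of macrophage, neutrophil and stromal cells in the falls of Il6ra and Csf3r was not tested. Without sham replicate 1 the log2 fold changes were -2.93 for Il6ra and -1.96 for Csf3r, and over all 6 samples left out in turn they ran from -2.93 to -2.48 and from -2.0 to -1.66, each still called.

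Type I interferons bind Ifnar2, the high-affinity chain carrying JAK1, and recruit Ifnar1, which carries TYK2. Ifnar2 (chr16:91372783-91405589, plus strand) had 3753, 3955 and 3774 normalized counts in sham and 2419, 2288 and 2528 in EV. Both groups were tight, with coefficients of variation of 2.9% and 4.98%, and the log2 fold change was -0.67 (SE 0.0646, adjusted p = 2.88e-05, edgeR). Ifnar1 (chr16:91485238-91507441, plus strand) had 2750, 3452 and 3064 normalized counts in sham and 2327, 2559 and 2455 in EV. All EV samples again lay below all sham samples, and the log2 difference of -0.34 (SE 0.0872) fell just short of the threshold (adjusted p = 0.0133, edgeR). It passed in 6 of 14 other fits and not in 8, with adjusted p from 0.00207 to 0.0631. Of the fits with a sample left out, it passed in the 1 without sham replicate 1 (-0.41, adjusted p = 0.00253, edgeR). Counts of Ifnar1 were 0.733, 0.873 and 0.812 times those of Ifnar2 in sham and 0.962, 1.12 and 0.971 times in EV. The groups did not overlap, and the ratio rose 1.26-fold (exact permutation test, two-sided, p = 0.1, adjusted 0.125).

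Interferon gamma binds Ifngr1, which carries JAK1, and Ifngr2, which carries JAK2, completes the receptor. Ifngr1 (chr10:19591949-19610229, plus strand) had 2962, 3147 and 2744 normalized counts in sham and 3203, 3405 and 3323 in EV. Ifngr2 (chr16:91547072-91565623, plus strand) had 2857, 2537 and 2739 in sham and 2943, 3044 and 3145 in EV. Every EV sample was above every sham sample for both genes, yet by little. The log2 differences were 0.17 for Ifngr1 (SE 0.0692, adjusted p = 0.0907, edgeR) and 0.17 for Ifngr2 (SE 0.0677, adjusted p = 0.0832, edgeR). An interval of 2 standard errors ran from 0.028 to 0.30 for Ifngr1 and from 0.031 to 0.30 for Ifngr2. The ratio of the chains was 1.04, 1.24 and 1.00 in sham and 1.09, 1.12 and 1.06 in EV, with overlapping groups (exact permutation test, two-sided, p = 1).

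TSLP, an epithelial cytokine of type 2 inflammation, signals through Crlf2 joined with the IL-7 receptor chain Il7r. Crlf2 (chr5:109554709-109558993, minus strand) had 3355, 3711 and 3052 normalized counts in sham and 4282, 4432 and 4673 in EV. The groups did not overlap, and the log2 fold change was 0.40 (SE 0.0791, adjusted p = 0.00284, edgeR). The call was lost without EV replicate 2 (0.42, adjusted p = 0.0124, edgeR), without EV replicate 3 (0.38, adjusted p = 0.0172, edgeR) and with library totals in place of TMM (0.25, adjusted p = 0.0285, edgeR). Il7r had 1037, 1875 and 1923 normalized counts in sham and 279, 435 and 372 in EV. Its log2 fold change was -2.15 (SE 0.238, adjusted p = 6.96e-05, edgeR), so the partner chains moved apart. Crlf2 counts were 3.23, 1.98 and 1.59 times those of Il7r in sham and 15.3, 10.2 and 12.5 times in EV, a 5.78-fold change of the ratio (exact permutation test, two-sided, p = 0.1, adjusted 0.125).

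**Figure D3:**
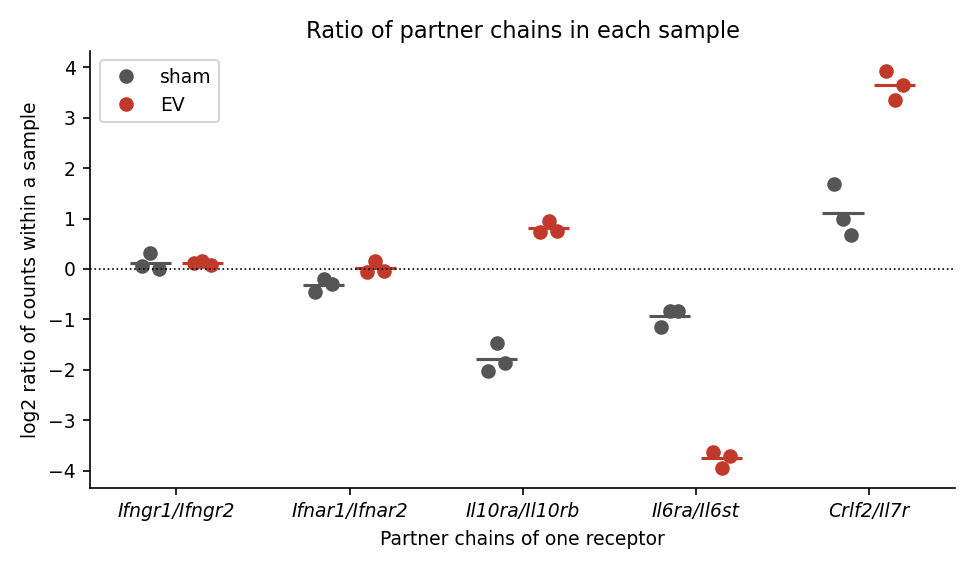
Log2 ratio of the counts of the partner chains of a receptor within each sample, for sham (grey) and EV (red), with a line at each group's mean and a dotted line at equal counts. The groups are apart for 4 of the 5 pairs, with EV above sham for Ifnar1/Ifnar2, Il10ra/Il10rb and Crlf2/Il7r and below for Il6ra/Il6st, and they overlap for Ifngr1/Ifngr2.

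Some of the receptor genes are neighbours. Ifnar2, Il10rb, Ifnar1 and Ifngr2 lie in this order on the plus strand of chromosome 16, within 193 kb (mm10), and their log2 differences along it were -0.67, -0.24, -0.34 and 0.17. Only the first of them was called. Gm21970, an annotated transcript that joins exons of Ifnar2 and Il10rb, shares 8.5% of the 31-base words of Ifnar2 and 14.2% of those of Il10rb, so that counts could be split between them. It had 0 normalized counts in every sham sample and a mean of 6.01 in EV, against 1615 or more for Ifnar2 and Il10rb in every sample.

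Per kilobase of the longest coding transcript, Crlf2 was the highest of the 10 receptors in sham, at 2400 ± 235 normalized counts (SD, n = 3). Ifngr1 (1397 ± 95.7), Ifnar2 (1256 ± 36.4) and Il10rb (1108 ± 105) came next, each apart from its neighbours in the order. Ifnar1 (790 ± 90.0) and Ifngr2 (731 ± 43.7) overlapped. Csf3r (173 ± 36.9) overlapped Il10ra (172 ± 35.3), which overlapped Il6st (120 ± 28.0), and Il6ra was the lowest at 64.3 ± 21.0. In EV samples Crlf2 was again the highest (3176 ± 140, SD, n = 3) and Ifngr1 the next (1567 ± 48.2). Il10ra, at 873 ± 26.7, had moved from rank 8 to rank 4 and overlapped its neighbours Il10rb (936 ± 56.3) and Ifngr2 (821 ± 27.2), the latter of which overlapped Ifnar2 (791 ± 39.4). Ifnar1 (626 ± 29.7), Il6st (136 ± 32.6), Csf3r (48.5 ± 9.59) and Il6ra (9.86 ± 1.67) followed without overlap. The place of Ifnar2 and Il6st depends on which transcript is taken: with the median length of the coding transcripts, Ifnar2 stood at 3482 in sham and 2194 in EV, and Il6st at 405 and 458.

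**Figure D4:**
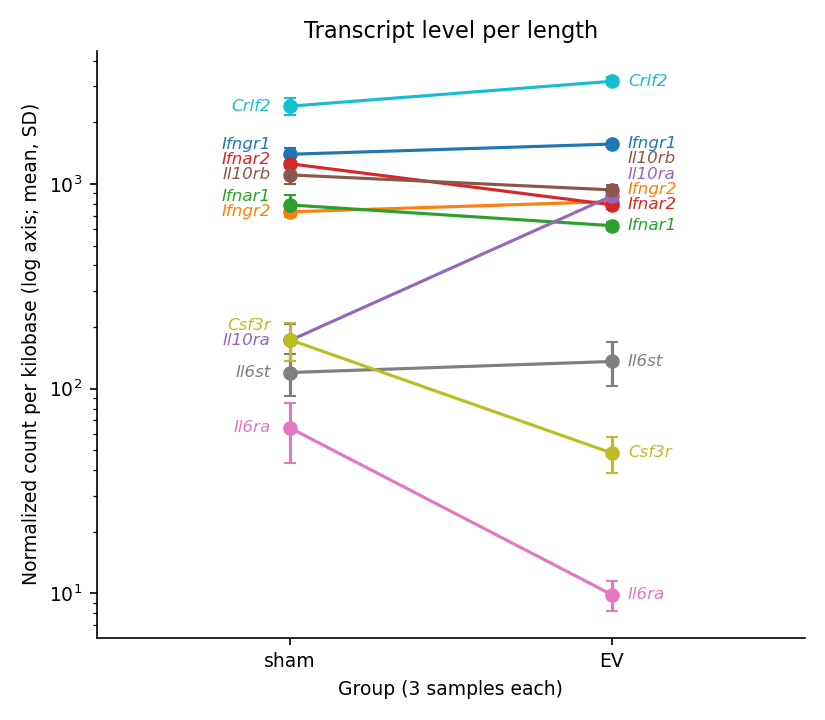
Mean normalized count per kilobase of the longest coding transcript (log axis, bars are the SD of 3 samples) for each receptor gene in sham and EV, joined by lines. Il10ra climbs from the lower group of genes, at 172, into the upper group, at 873, Csf3r crosses below Il6st, and Il6ra is the lowest in both groups.

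The related receptor chains tested were 2 class II chains and 8 gp130 family and related class I chains. Of these, 2 were called, both lower, where 23.7% of all genes tested were called in either direction. Among class II chains beyond the 10, 4 of 5 listed were in the table and the 2 tested, Ifnlr1 and Il20rb, did not pass. Among gp130 family and related class I chains, 8 were tested, none was higher and 2 were lower (12.1% and 11.6% of all genes tested). These were Il7r and Il11ra1, the IL-11 receptor. Il11ra1 fell by 1.17 on the log2 scale (SE 0.242, adjusted p = 0.00384, edgeR), a call lost in 4 of 6 fits with a sample left out (without sham replicates 2 or 3 or EV replicates 1 or 3, adjusted p from 0.0110 to 0.0240, edgeR). Lifr, which joins gp130 for LIF, had 144, 114 and 241 normalized counts in sham and 125, 106 and 76.6 in EV, and its log2 difference of -0.70 did not pass (adjusted p = 0.116, edgeR). Osmr, which joins gp130 for oncostatin M, was low, with 20.7, 22.1 and 4.86 normalized counts in sham and 17.0, 0 and 6.96 in EV.

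Osm, Il6 and Lif, ligands of receptors that contain gp130, rose with EVs. Of 20 ligands listed for the 10 receptors, 10 were in the table and 6 were tested, and 3 of these were higher and none lower (12.1% and 11.6% of all genes tested). None of the interferons listed was in the table, and neither was Tslp. Osm, oncostatin M, had 1225, 1010 and 1284 normalized counts in sham and 12658, 10930 and 12148 in EV (log2 fold change 3.34, SE 0.10, adjusted p = 2.08e-08, edgeR). Il6 had 80.2, 60.1 and 82.6 in sham and 722, 641 and 523 in EV (3.07, SE 0.192, adjusted p = 1.60e-06, edgeR). Il6 thus rose in the samples in which its receptor chain Il6ra fell. Lif, leukaemia inhibitory factor, had 112, 145 and 132 in sham and 883, 756 and 781 in EV (2.64, SE 0.146, adjusted p = 7.75e-07, edgeR). Clcf1 (0.10, adjusted p = 0.743, edgeR), the shared IL-27 and IL-35 subunit Ebi3 (0.31, adjusted p = 0.0254, edgeR) and Il27 (1.39, adjusted p = 0.277, edgeR) did not pass. Il10 reached at most 15 counts in any sample and was not tested. Csf3, which encodes G-CSF, had 0 counts in every sample, which at this depth allows up to 3 counts per library.

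**Figure D5:**
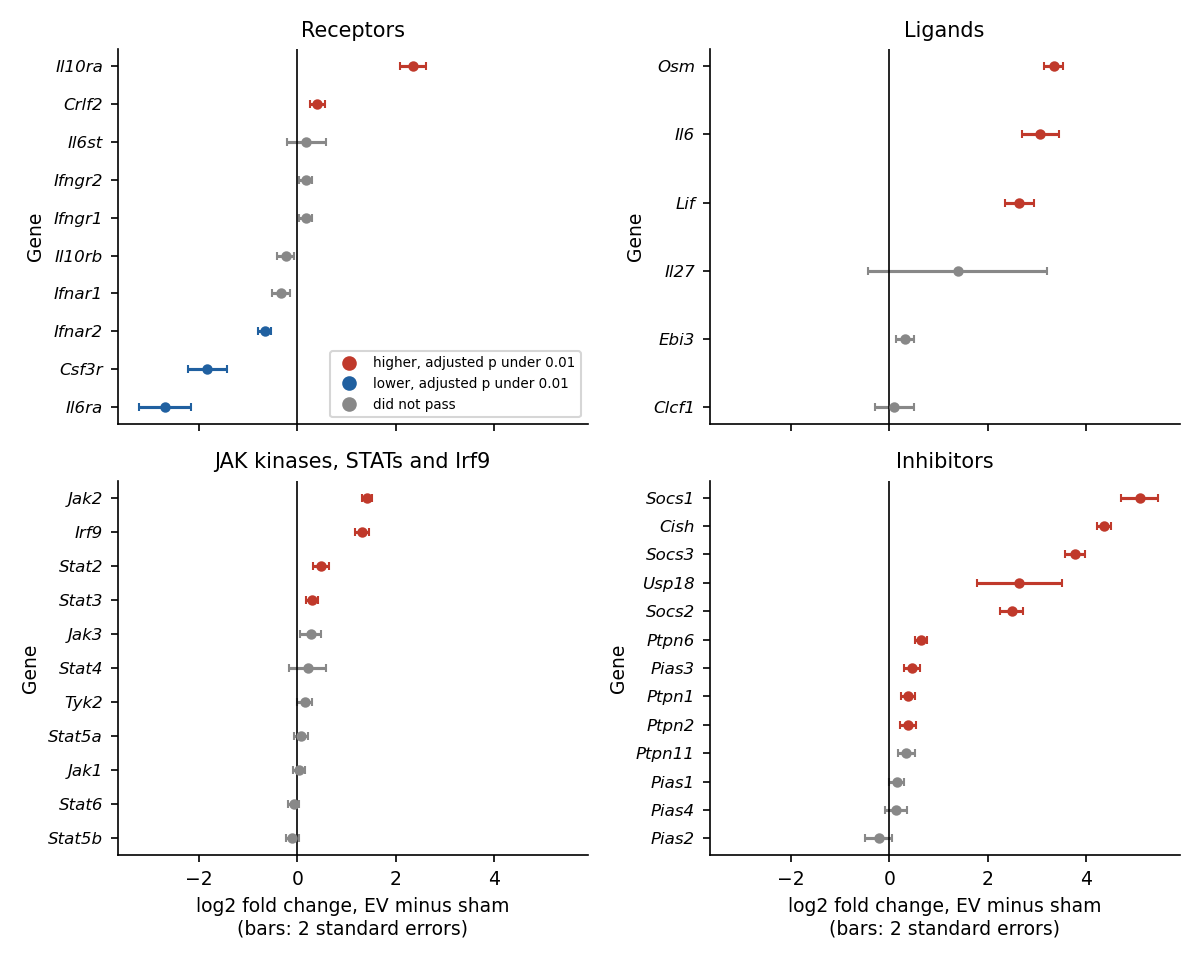
Log2 fold changes, EV minus sham, with bars of 2 standard errors on each side, for the genes tested among the receptors, their ligands, the JAK kinases, STAT factors and Irf9, and the listed inhibitors of JAK and STAT signalling. Red marks genes called higher, blue genes called lower and grey genes that did not pass, and all calls outside the receptor panel are higher.

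Downstream of the receptors, 4 of 11 JAK, STAT and Irf9 genes were higher and none was lower, against 12.1% and 11.6% of all genes tested, with a median log2 fold change of 0.205. Jak2, the kinase of Ifngr2, had 5542, 5334 and 5227 normalized counts in sham and 14473, 14365 and 13996 in EV (log2 fold change 1.41, SE 0.0535, adjusted p = 6.44e-08, edgeR). Jak1, the kinase that serves most of these receptors, differed by 0.03 (adjusted p = 0.708, edgeR) and Tyk2 by 0.14 (adjusted p = 0.195, edgeR), and the sign of both turned with library totals in place of TMM (-0.12 and -0.0061). Irf9, a partner of STAT2 in the type I interferon response, rose by 1.31 (SE 0.0729, adjusted p = 7.96e-07, edgeR). Stat2 rose by 0.48 (SE 0.0795, adjusted p = 9.96e-04, edgeR). Stat3 rose by 0.30 (SE 0.0600, adjusted p = 0.00329, edgeR), but was not called without sham replicate 2, EV replicate 2 or EV replicate 3 (adjusted p = 0.0111, 0.0160 and 0.0209, edgeR) or with library totals (0.15, adjusted p = 0.0577, edgeR).

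Of 13 listed inhibitors of JAK and STAT signalling, not all of them particular to these receptors, 9 were higher and none was lower (12.1% and 11.6% of all genes). Their median was 0.457. Socs3, which binds gp130 and the G-CSF receptor and blocks their JAK kinases, had 164, 201 and 208 normalized counts in sham and 2551, 2564 and 2682 in EV. Socs1, an inhibitor of the interferon gamma receptor and its JAK kinases, had 123, 174 and 82.6 in sham and 4002, 4345 and 4661 in EV. Cish, an inhibitor of STAT5 signalling, had 775, 669 and 719 in sham and 14976, 14438 and 15323 in EV. The sham and EV samples of these 3 inhibitors lay far apart. Usp18, which binds Ifnar2 and dampens type I interferon signalling, had 56.8, 17.2 and 96.0 in sham and 290, 393 and 385 in EV (2.65, SE 0.437, adjusted p = 9.89e-04, edgeR). Of 7 genes of receptor shedding and turnover, 2 were higher and none was lower (12.1% and 11.6% of all genes). Rhbdf2, which encodes iRhom2, a partner that brings the IL-6 receptor sheddase ADAM17 to the cell surface, had 3167, 3275 and 3024 in sham and 5202, 5072 and 5389 in EV (0.73, SE 0.0610, adjusted p = 1.08e-05, edgeR). Itch, a ubiquitin ligase, rose by 0.38 (SE 0.0648, adjusted p = 0.00121, edgeR) and was not called with library totals (0.23, adjusted p = 0.0161, edgeR).

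Genes known to respond to these receptors were mostly higher where they were called. Of 20 type I interferon targets tested, 6 were higher and none was lower (12.1% and 11.6% of all genes), with a median of 0.732. Zbp1, a nucleic acid sensor, had 75.7, 45.3 and 13.4 normalized counts in sham and 1038, 1094 and 1017 in EV, and Irf7 had 146, 170 and 180 in sham and 688, 708 and 687 in EV. Oasl2 rose by 1.96 on the log2 scale (SE 0.219, adjusted p = 7.33e-05, edgeR). The other 14 did not pass, among them the classical targets Ifit1, Mx1 and Isg15, each with at most 106 counts in any sample. Isg15 fell just short of the threshold (1.40, SE 0.347, adjusted p = 0.0105, edgeR). It had 28.8, 41.7 and 30.4 normalized counts in sham and 83.9, 89.1 and 92.3 in EV. For Ifit1 (1.02, adjusted p = 0.463, edgeR) and Mx1 (0.41, adjusted p = 0.810, edgeR) the groups overlapped. Of 19 interferon gamma targets tested, 14 were higher and 1, Irf8, was lower (12.1% and 11.6% of all genes), with a median of 1.08. The guanylate-binding protein Gbp3 had 0 counts in all sham samples and 14.0, 30.9 and 33.9 normalized counts in EV, at least 7.86-fold higher against a floor of 3 counts per sham library. Iigp1 also had 0 counts in all sham samples and 16, 42.9 and 12.2 in EV, at least 7.08-fold higher. With both at these bounds the median remained 1.08. The call was lost without EV replicate 2 or 3 for Gbp3 (adjusted p = 0.0175 and 0.0218, edgeR) and in 5 of 6 fits with a sample left out for Iigp1, all but the one without sham replicate 1 (adjusted p from 0.0103 to 0.0361, edgeR).

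Of 22 targets of IL-10, IL-6 and STAT3, 16 were higher and 4 were lower (Bcl6, Fos, Cebpd and Hmox1), beside 12.1% and 11.6% of all genes, with a median of 0.826. Hmox1, the heme oxygenase, had 13236, 19087 and 19862 normalized counts in sham and 1506, 1678 and 1879 in EV (log2 fold change -3.36, SE 0.153, adjusted p = 2.27e-07, edgeR). Bcl6, a transcriptional repressor, had 1558, 1668 and 1452 in sham and 225, 262 and 265 in EV (-2.64, SE 0.106, adjusted p = 9.31e-08, edgeR). Most of this list was thus higher, but not all of it, and many of its members respond to other cytokines as well.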

How the data were processed

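Bulk poly(A) RNA was sequenced from 3 sham and 3 EV samples of eosinophils, grouped by their treatment labels. The submitters' processing notes name FastQC, Cutadapt, Salmon, DESeq2 and the build mm10. Versions, annotation and strandedness are not given in the sources used here. The authors deposited estimated counts, which need not be whole, for 16254 genes, and a normalized signal in which 99.9938% of values equal the rounded count plus 1 divided by a size factor (within 0.01 counts). The authors' deposited table of their own comparison, with log2 fold changes and p-values, was not used. Salmon spreads reads shared by similar transcripts, so counts of genes with a near copy are less certain.

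After rounding, the counts entered edgeR 4.0.16 (R 4.3.3) with TMM scaling, filterByExpr, the quasi-likelihood test and Benjamini-Hochberg adjustment over 13498 genes, and calls were made at 0.01. The SE of a log2 fold change is its size over the square root of F. Partner chains were compared by log2 of the ratio of counts plus 1. Alternatives used DESeq2 1.42.0, limma 3.58.1, other scalings and filters, a replicate block and each sample left out. The procedure was tested on simulated data with the same dispersion for every gene, which does not test the calls at the spread of each gene here. Gene positions, transcript lengths and shared 31-base words are from GENCODE vM21 on mm10. Words were compared in the orientation of the transcripts only. Chi-square per gene between replicates was 8.56 to 33.0, well beyond sampling noise, so all 6 libraries were counted as separate samples. Replicate spread, not counting error, limits precision except at low counts.

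The receptors and lists were chosen with earlier results of these data known. The genes named are the 10 receptors, 11 pathway genes fixed whatever their values, ligands with over 3 counts in every sample of a group, and the 3 called genes of each pathway list with the largest change, no overlap and a mean over 10. Other genes, named as marker genes or as the genes making up a count, were chosen after their values were seen. Some listed genes are not reported here.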

Additional observations from a re-analysis of the deposited data

How the results depend on the processing

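Il10ra, Il6ra, Csf3r and Ifnar2 kept their direction and call in all 14 other fits. With library totals in place of TMM, which moved the median of all genes to -0.163, the counts were 1036 higher genes in all, 1 receptor higher and 5 lower, with Ifnar1 at -0.48 (adjusted p = 0.00207) and Il10rb at -0.39 (adjusted p = 0.00478) now called and Crlf2 at 0.25 (adjusted p = 0.0285) lost. Requiring a log2 fold change of 1 or more in size left 419 higher and 857 lower genes and 1 receptor higher, and an adjusted p under 0.05 gave 2478 lower genes and 5 lower receptors. Ifnar1 was also called with upper quartile scaling (-0.38, adjusted p = 0.00588), DESeq2 (-0.33, adjusted p = 0.00292) and a stricter filter (-0.37, adjusted p = 0.00610). With single samples left out, higher genes ranged from 1071 to 1833, lower genes from 1018 to 1698, receptors higher from 1 to 2 and lower from 3 to 4, Ifnar1 from -0.41 to -0.25, Crlf2 from 0.35 to 0.48 and the log2 ratio of Ifngr1 to Ifngr2 from -0.060 to 0.094, turning its sign without sham replicate 2 (0.094) or EV replicate 3 (0.020). Leaving out EV replicate 3 gave the fewest calls in each direction, and without EV replicate 2 the lower genes numbered 1044. With the median transcript length, levels per kilobase in sham and EV became 1115 and 883 for Ifnar1, 3482 and 2194 for Ifnar2, 92.7 and 14.2 for Il6ra and 405 and 458 for Il6st, and in EV 970 for Il10ra and 3373 for Crlf2. Jak1 turned sign with upper quartile scaling (-0.015), library totals (-0.12), the stricter filter (-0.0011) and without sham replicate 2 (-0.0075, range over samples left out up to 0.066), Tyk2 with library totals (-0.0061), and Clcf1 with library totals (-0.049) and without sham replicate 2 (-0.073, range up to 0.29). The cause of these shifts was not tested.

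The replicate numbers were not taken as pairing the samples, since the deviations of same-numbered samples correlated at 0.117, 0.0846 and 0.0371 over 13498 genes, although 5 of 6 samples correlated best with their own number. With the replicate number as a block, Ifnar1 was called (-0.33, adjusted p = 0.00279) and no other call among the receptors changed, while among the other named genes Ebi3 was called (0.31, adjusted p = 0.00902). Samples numbering 3 per group, and few counts for genes such as Osmr and Gbp3, limit what can be detected.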
